A study of Homo sapiens with 4 samples.

Results

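The G1 cyclins and the inhibitors of their kinases were read on all 4 arrays of the study. The 10 genes were the D cyclins CCND1, CCND2 and CCND3, the E cyclins CCNE1 and CCNE2, the CIP/KIP inhibitors CDKN1A, CDKN1B and CDKN1C and the INK4 inhibitors CDKN2A and CDKN2B. They were taken as every probe set whose only platform gene symbol was one of these names, which gave 24 probe sets of 54675 on the array, or 10 of 19775 genes. A probe set is a small group of oligonucleotides that together read one stretch of a transcript.

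In G1, growth factor signals raise the D cyclins, which bind CDK4 and CDK6 and start the phosphorylation of RB1 and its relatives. This frees the E2F transcription factors, whose targets include the E cyclins, and cyclin E with CDK2 then drives entry into DNA synthesis. INK4 proteins bind CDK4 and CDK6 directly, while CIP/KIP proteins bind whole cyclin-CDK complexes and act mainly on CDK2. In lung adenocarcinoma the pathway is known for loss of CDKN2A and for high cyclin D1.

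The cells were CL1-5 and CL1-0, human lung adenocarcinoma lines of which CL1-5 is known as the more invasive subline of CL1-0. The 4 groups were CL1-5 with an shRNA against AK4, CL1-5 with a non-silencing shRNA, CL1-0 with an AK4 vector and CL1-0 with a control vector, all stably transduced and all selected in puromycin for 2 weeks. AK4 is a mitochondrial adenylate kinase, and by the labels CL1-0 received a vector meant to express it and CL1-5 an shRNA meant to lower it. With 1 array in each group there is no replicate error, and no p-value is given. The sources used here do not name the promoters of the constructs or say whether the cells were clones or pools. In RNA from whole cultures, fewer cells of a type and less RNA per cell cannot be told apart.

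Signals are intensities on a linear scale after each array was scaled to a common trimmed mean, and the floor is a signal of 6.93, under which values were set to 6.93 before ratios were taken. All 4 AK4 probe sets were dimmer with AK4 shRNA than with non-silencing shRNA in CL1-5, at 41.9% to 54.4% of it. In CL1-0 none was brighter on the array labelled AK4 vector, with log2 ratios from -0.25 to -0.05, so directions drawn from that array rest on its label. The ratio of 3' to 5' beta-actin signal, which grows with RNA degradation, was 1.61 and 1.34 on the CL1-5 arrays and 6.54 and 6.04 on the CL1-0 arrays, while that of GAPDH was 1.07 and 1.04 on the CL1-5 arrays and 1.54 and 1.25 on the CL1-0 arrays. The deposited values of 4499 of 54613 probe sets were identical on both CL1-0 arrays and those of 3286 on both CL1-5 arrays, while 0 were identical between the CL1-5 and CL1-0 controls. Whether the lines were processed apart is not stated in the labels, so levels set across the lines may carry a difference in processing, which was not tested. The labels call both lines alveolar type II cells. The type II markers were mixed. The surfactant gene SFTPC had signals of 24.0 and 26.3 in CL1-5 and 30.8 and 28.2 in CL1-0, and the transporter SLC34A2 was at or below the floor on all 4 arrays. ETV5 read 158 and 160 in CL1-5, against 197 and 269 in CL1-0, and ABCA3 36.3 and 39.7 against 76.9 and 78.2. LAMP3 read 160 and 210 in CL1-0 and was under the floor in CL1-5. The epithelial genes EPCAM and CDH1 were at or below the floor on both CL1-5 arrays and with the control vector in CL1-0. Summed over the markers with a probe set, signals in CL1-5 and CL1-0 were 314 to 321 and 559 to 686 for 10 type II markers, 1770 to 2009 and 54.0 to 57.1 for 6 epithelial markers and 111 to 133 and 95.9 to 97.8 for 6 fibroblast markers. In these sums each value under the floor counted as 6.93. Of the epithelial sum in CL1-5, KRT18 made up 1485 and 1681 and KRT8 258 and 299, while KRT19 and CDH3 read between 6.67 and 8.63. The sums were 38.8 to 46.4 and 27.8 to 29.2 for 4 leukocyte markers, and 89.0 to 98.2 and 39.8 to 40.1 for 5 endothelial markers. Floor values are part of these sums. Of the leukocyte markers 2 and 3 were above the floor in CL1-5 and 2 and 1 in CL1-0. Of the endothelial markers 3 and 3 were above it in CL1-5 and 2 and 3 in CL1-0. The leukocyte gene PTPRC, the endothelial genes CDH5 and KDR and the fibroblast genes COL3A1 and LUM were at or below the floor on all 4 arrays. Others of these lists were not. The fibroblast gene COL1A1 read 56.1 and 78.3 in CL1-5, against 47.8 and 47.4 in CL1-0. The endothelial gene PECAM1 read 54.0 and 45.1 against 6.20 and 7.12, and the leukocyte gene ITGAM 17.7 and 23.4 against 8.21 and 6.72.

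Of the 24 probe sets, 13 were above the floor on all 4 arrays, 22 on at least 1 and 2 on none. CDKN1A and CDKN1B had 1 probe set each and the other 8 genes had several, of which the one with the highest mean log2 level was read as the gene. All 10 genes were above the floor on at least 1 array by that probe set.

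**Figure D1:**
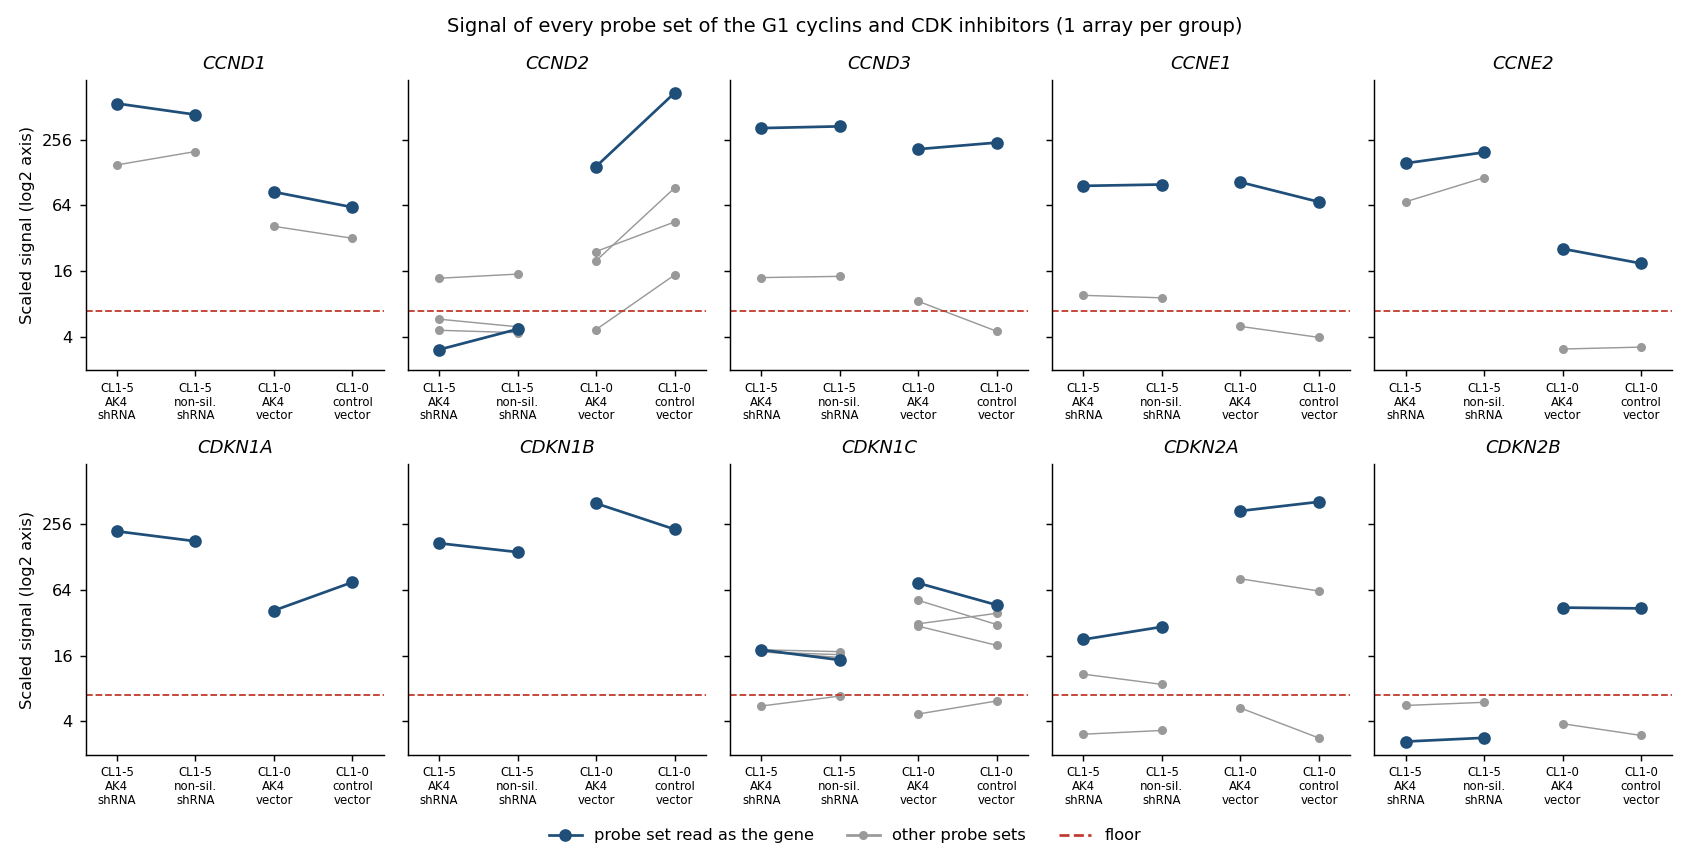
Scaled signal, on a log2 axis, of all 24 probe sets of the 10 genes on the CL1-5 AK4 shRNA, CL1-5 non-silencing shRNA, CL1-0 AK4 vector and CL1-0 control vector arrays, with lines joining the arrays of a line. Blue marks the probe set read as the gene, grey the others and the dashed line the floor of 6.93. By the blue probe sets, CCND1, CCND3, CCNE2 and CDKN1A are higher on both CL1-5 arrays than on both CL1-0 arrays. The blue probe sets of CCND2, CDKN1B, CDKN1C, CDKN2A and CDKN2B are lower on both CL1-5 arrays.

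Cyclin D1 (CCND1), the D cyclin most often raised in carcinomas, was brighter in CL1-5. Probe set 208712_at read 548 with AK4 shRNA and 433 with non-silencing shRNA in CL1-5, against 84.9 with the AK4 vector and 61.6 with the control vector in CL1-0. Both CL1-5 arrays thus lay above both CL1-0 arrays, with a log2 ratio of 2.82 between the controls of the lines, or 7.04-fold. The second probe set, 208711_s_at, gave 2.64. The AK4 vector gave 0.46 and 0.36 for the 2 probe sets. With AK4 shRNA they disagreed, at 0.34 for 208712_at and -0.41 for 208711_s_at, so the shRNA comparison gave CCND1 no direction.

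Cyclin D2 (CCND2), which binds the same kinases as cyclin D1, had the opposite pattern. Probe set 200953_s_at read 3.06 and 4.71 in CL1-5 with AK4 shRNA and non-silencing shRNA, both under the floor, against 145 with the AK4 vector and 685 with the control vector in CL1-0. The 4 arrays thus hold 3 kinds of value, with no measured signal in CL1-5, a middle one with the AK4 vector and the highest with the control vector. Within CL1-0 the log2 ratio of the AK4 vector over the control vector was -2.24, a 4.72-fold lower signal, which ranked 5 from the lowest of 14681 measured genes. The other 3 probe sets gave -2.21 for 200951_s_at, -1.09 for 200952_s_at and -0.90 for 231259_s_at. Their signals were 19.9, 4.67 and 24.2 with the AK4 vector and 92.3, 14.8 and 45.1 with the control vector. All 4 therefore pointed the same way, though 200952_s_at was under the floor with the AK4 vector, so that its ratio is set by the floor. Between the controls of the lines the gene was at least 98.8-fold lower in CL1-5 for this probe set and scaling, a log2 ratio of -6.63, because the floor stands for the CL1-5 signal. Probe set 231259_s_at was above the floor in CL1-5 too, at 13.8 and 15.0, and gave -1.59.

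Cyclin D3 (CCND3), the remaining D cyclin, differed least of the 3 between the lines. Its probe set 201700_at read 326 and 338 in CL1-5 with AK4 shRNA and non-silencing shRNA, against 209 and 240 in CL1-0 with the AK4 vector and the control vector. The log2 ratios were -0.05 for the shRNA, -0.20 for the vector and 0.49 between the lines. The dim second probe set, 1562028_at, gave -0.04, 0.29 and 1.05 for the same comparisons, so the direction in CL1-0 differed between probe sets. Of the 3 D cyclins, CL1-5 thus had measured signals for D1 and D3 with all of D2 but 1 probe set under the floor, and CL1-0 had measured signals for all 3.

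The E cyclins, partners of CDK2, differed from each other. Cyclin E1 (CCNE1) read 96.6 and 99.3 in CL1-5 with AK4 shRNA and non-silencing shRNA, against 104 with the AK4 vector and 68.9 with the control vector in CL1-0, on probe set 213523_at. On that probe set the CL1-5 values lay between the CL1-0 values, with log2 ratios of 0.53 between the lines, 0.60 for the vector and -0.04 for the shRNA. The dim second probe set, 242105_at, read 9.61 and 9.11 in CL1-5 and was under the floor on both CL1-0 arrays. It gave 0.40 between the lines, a bound set by the floor, and 0.08 for the shRNA. Cyclin E2 (CCNE2) read 156 and 196 in CL1-5 with AK4 shRNA and non-silencing shRNA, against 25.6 with the AK4 vector and 18.8 with the control vector in CL1-0, on probe set 205034_at. Both CL1-5 arrays were far above both CL1-0 arrays, and the log2 ratio between the controls was 3.38, or 10.4-fold. The second probe set, 211814_s_at, read 69.0 and 115 in CL1-5 and was under the floor on both CL1-0 arrays. With AK4 shRNA both CCNE2 probe sets were lower, by -0.33 and -0.73 on the log2 scale, and with the AK4 vector 205034_at was at 0.45.

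Among the CIP/KIP inhibitors, p21 (CDKN1A), a target of p53, and p27 (CDKN1B), a brake that rises in resting cells, stood on opposite sides in 2 of the comparisons. CDKN1A read 220 with AK4 shRNA and 179 with non-silencing shRNA in CL1-5, against 41.4 with the AK4 vector and 75.3 with the control vector in CL1-0. CDKN1B read 171 and 142 in CL1-5 with AK4 shRNA and non-silencing shRNA, against 397 and 230 in CL1-0 with the AK4 vector and the control vector. In CL1-0, CDKN1A was lower with the AK4 vector at -0.86 and CDKN1B higher at 0.79, each short of 2-fold. Between the lines CDKN1A was higher in CL1-5 at 1.25 and CDKN1B lower at -0.69. In CL1-5 both were slightly higher with AK4 shRNA, at 0.30 and 0.27. The between-line value of CDKN1A was 0.76 when the arrays were scaled to a common median, which takes it under 2-fold, and that of CDKN1B was 0.18 without scaling, which turns its sign.

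The other CIP/KIP gene, p57 (CDKN1C), which is imprinted in human tissues, was dimmer in CL1-5. Probe set 213348_at read 18.1 with AK4 shRNA and 14.6 with non-silencing shRNA in CL1-5, against 73.9 with the AK4 vector and 46.6 with the control vector in CL1-0. Of its 5 probe sets, 4 were measured, and all 4 were lower in CL1-5 than in CL1-0, by log2 ratios from -1.67 to -0.28. Between the controls 2 of them passed 2-fold, and the gene was at -0.82 when all its probe sets were averaged and at -0.80 without scaling, both short of 2-fold. In CL1-0 with the AK4 vector 3 of the 4 were higher, between 0.58 and 0.74, and 213182_x_at was lower at -0.32. With AK4 shRNA all 4 were higher, by 0.06 to 0.31.

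CDKN2A and CDKN2B, neighbours on chromosome 9, gave the lower signals in CL1-5 on both their brightest probe sets. CDKN2A encodes p16 (INK4a) and, from a separate first exon, ARF, which protects p53. CDKN2B encodes p15, known as a target of TGF-beta signalling. Their promoters are shown because the 3 starts lie close together and the signals of both genes were low in the same line. Each run gives the 250 bases before the start on the minus strand of GRCh38.p14, from RefSeq. Capitals mark the GC box GGGCGG, the core of an Sp1 site, or its reverse complement CCGCCC.
CDKN2A, ARF start, chr9:21995325-21995574: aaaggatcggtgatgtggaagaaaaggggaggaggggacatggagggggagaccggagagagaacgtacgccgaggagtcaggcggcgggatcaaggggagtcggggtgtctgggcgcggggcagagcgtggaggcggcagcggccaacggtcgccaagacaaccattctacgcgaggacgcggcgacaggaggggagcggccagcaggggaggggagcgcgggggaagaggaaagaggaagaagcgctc
CDKN2A, INK4a start, chr9:21974858-21975107: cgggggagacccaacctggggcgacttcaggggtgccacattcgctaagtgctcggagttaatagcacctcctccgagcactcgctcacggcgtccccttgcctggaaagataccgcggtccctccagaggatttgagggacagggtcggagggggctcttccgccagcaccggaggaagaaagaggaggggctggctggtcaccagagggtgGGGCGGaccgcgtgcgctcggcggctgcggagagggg
CDKN2B, chr9:22009306-22009555: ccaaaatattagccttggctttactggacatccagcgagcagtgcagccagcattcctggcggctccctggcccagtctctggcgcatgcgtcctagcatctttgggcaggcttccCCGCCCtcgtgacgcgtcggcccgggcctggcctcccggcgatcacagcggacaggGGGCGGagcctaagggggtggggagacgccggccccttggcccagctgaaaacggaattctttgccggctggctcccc

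The INK4a window held 1 GC box, that of CDKN2B held 2 and the ARF window held 0. Over 35116 promoter windows of the same length, 42.6% held at least 1 on either strand, so a match is common. G and C made up 66.8% of both CDKN2A windows and 66.4% of the CDKN2B window, against a median of 58% over all windows. Of the 10 genes, 6 had an entry among these promoters.

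On probe set 209644_x_at CDKN2A read 22.5 with AK4 shRNA and 29.4 with non-silencing shRNA in CL1-5, against 338 with the AK4 vector and 410 with the control vector in CL1-0. The ending _x_at marks probes that may bind other transcripts, so the remaining CL1-5 signal is uncertain, and its source was not tested. Probe set 207039_at, without that ending, read 3.06 and 3.31 in CL1-5, under the floor, against 80.9 and 62.5 in CL1-0 with the AK4 vector and the control vector. The between-line log2 ratios were -3.80 and -3.17, and the second is a bound set by the floor. A further dim probe set, 211156_at, was above the floor in CL1-5 only, at 10.8 and 8.73, and went the other way at 0.33. In CL1-0 the brighter probe sets disagreed on the vector, at -0.28 for 209644_x_at and 0.37 for 207039_at.

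CDKN2B read 2.62 and 2.83 on probe set 236313_at in CL1-5 with AK4 shRNA and non-silencing shRNA, both under the floor, against 44.1 and 43.3 in CL1-0 with the AK4 vector and the control vector. It was at least 6.25-fold lower in CL1-5 than in CL1-0 for this probe set and scaling, and at 0.02 on the log2 scale for the vector, the smallest of the 10 ratios in that comparison. Its deposited value was identical on both CL1-0 arrays, so the 0.02 is the ratio of the 2 scaling factors alone. Its other probe set, 207530_s_at, was under the floor on all 4 arrays.

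The comparison in CL1-0 set the array labelled AK4 vector against the control vector, and AK4 itself was not brighter on it, at -0.25 to -0.05 over its 4 probe sets. Of the 10 genes, 1 was at least 2-fold lower with the AK4 vector, CCND2, against 1.16% of 14681 measured genes. None was at least 2-fold higher, against 3.22%. The median log2 ratio of the 10 was 0.24 and that of all measured genes 0.05, and 6 of 10 were above 0, against 56.1% of all. The next largest ratios were those of CDKN1A at -0.86, CDKN1B at 0.79, CDKN1C at 0.67 and CCNE1 at 0.60, and as a scale for them, probe sets that read 1 gene differed in their ratios with a pooled SD of 0.41. That SD holds real differences between transcripts and is no replicate error.

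The comparison in CL1-5 asked what differs when AK4 is lowered by shRNA. Of the 8 genes measured there, 0 were higher by 2-fold or more, against 0.0914% of 15321 measured genes, and 0 were lower by as much, against 0.0131%. At these shares a count of 0 among 8 genes says little about them. Their median was 0.11 against -0.0015 for all measured genes, 4 of 8 were above 0, against 49.7% of all, and the pooled SD between probe sets was 0.22. The largest ratios were -0.38 for CDKN2A and 0.34 for CCND1, each contradicted by another probe set, and -0.33 for CCNE2, which its other probe set bore out. CCND2 and CDKN2B could not be read because both arrays were under the floor.

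The controls of the lines were compared to describe the cells in which AK4 was altered. Each of these arrays also served in one of the comparisons above, so the values given side by side are not independent. They carried different constructs, so line and construct cannot be told apart, and the part of the difference in beta-actin 3' to 5' signal was not tested. Of the 10 genes, 3 were at least 2-fold higher in CL1-5, which were CCND1, CCNE2 and CDKN1A, against 17.1% of 15970 measured genes. At least 2-fold lower were 4, which were CCND2, CDKN1C, CDKN2A and CDKN2B, against 14.2%. Their median was -0.10 and that of all measured genes 0.13, 5 of 10 were above 0, against 56% of all, and the pooled SD between probe sets was 0.85. By rank, CCND2 was at 13, CDKN2A at 113 and CDKN2B at 281 from the lowest, and CCNE2 at 184 and CCND1 at 307 from the highest. An alternative was chosen after seeing the data, the ratio of the other array of each line, CL1-5 AK4 shRNA over CL1-0 AK4 vector. It put the same 7 genes past 2-fold in the same directions and added CDKN1B at -1.21. The share of all genes past 2-fold is not given for this pair, so its count has no baseline. Its arrays also carried different AK4 constructs. Scaling moved the comparison of the controls as a whole. Of all genes past 2-fold, 54.6% were higher in CL1-5, against 42.9% after quantile normalization, 26.8% after scaling to a common median and 90.4% without scaling, with medians of all measured genes at 0.13, -0.06, -0.30 and 0.83.

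**Figure D2:**
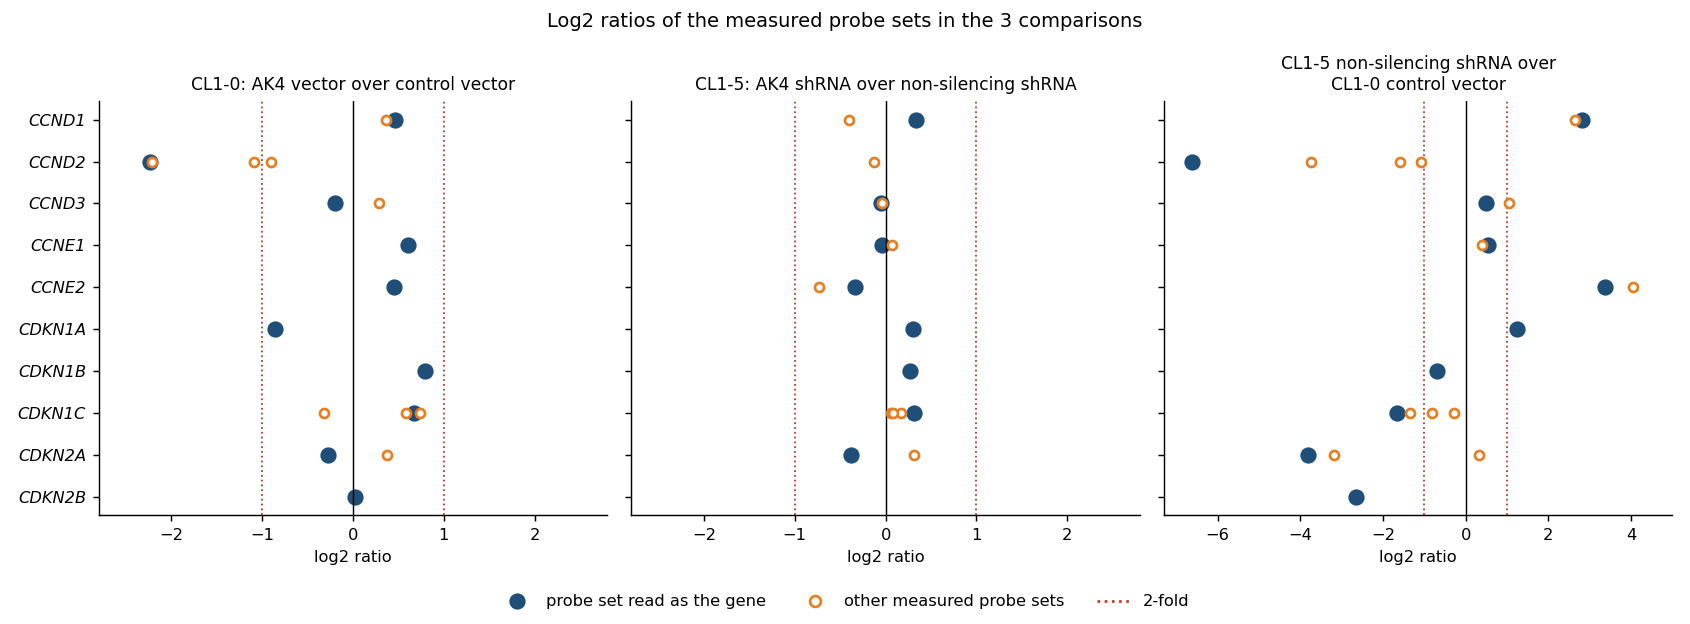
Log2 ratios of the measured probe sets of the 10 genes in the CL1-0 vector comparison, the CL1-5 shRNA comparison and the comparison of CL1-5 non-silencing shRNA with CL1-0 control vector, the last on a wider axis. Filled points are the probe set read as the gene and open points the others, with dotted lines at 2-fold. All 4 CCND2 probe sets lie left of 0 in the vector comparison, and no probe set passes 2-fold in the shRNA comparison.

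At the level of probe sets, 19 were measured in the vector comparison, with 3 at least 2-fold lower, all of CCND2, and 0 higher, against 1.72% and 3.15% of all measured probe sets with 1 gene symbol. In the shRNA comparison 17 were measured and 0 passed 2-fold in either direction, against 0.0651% higher and 0.0857% lower. Between the lines 22 were measured, of which 6 were higher in CL1-5 and 9 lower by 2-fold or more, against 21.1% and 12.1%. Probe sets of a gene share its transcripts and are not replicates.

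The genes around CDKN2A and CDKN2B were read in their order on the chromosome in the GRCh38.p14 annotation. The stretch from FOCAD to CAAP1 was chosen after the values were seen. It held 28 genes with a probe set, many of them type I interferon genes. Of these 14 were at or below the floor on all 4 arrays and 10 were above it on both CL1-0 arrays. Of those 10, IFNA21, KLHL9, MTAP and CDKN2B were at or below the floor on both CL1-5 arrays, against 4.42% of the 13589 genes above the floor on both CL1-0 arrays. The stretch was placed around CDKN2A and CDKN2B with their values known, and CDKN2B is in the count. The count therefore cannot be read as an excess over that share. KLHL9, a ubiquitin ligase adaptor, read 2.77 and 3.47 in CL1-5, against 251 and 233 in CL1-0 with the AK4 vector and the control vector on 213233_s_at, and its probe set 213117_at read 3.42 and 5.40 against 62.4 and 69.3. MTAP, an enzyme of methionine salvage, read 4.06 and 3.48 in CL1-5, against 44.5 and 30.3 in CL1-0 on 231984_at, while its dim probe set 211364_at went the other way, at 9.29 and 9.74 against 4.69 and 7.56. IFNA21 was dim in CL1-0 too, at 7.94 and 9.54. IFNA17, between FOCAD and KLHL9, was above the floor on all 4 arrays, at 14.3 and 10.9 in CL1-5, against 8.61 and 7.39 in CL1-0, on a probe set that may bind other interferon transcripts. At the ends of the stretch both lines gave measured signals. FOCAD read 65.3 and 73.9 in CL1-5, against 120 and 134 in CL1-0, TUSC1 146 and 153 against 284 and 279, and CAAP1 206 and 185 against 144 and 132. DMRTA1, next to CDKN2B on the other side from MTAP, was above the floor in CL1-5 only, at 13.7 and 13.9. In CL1-0 it read 6.92 with the AK4 vector, barely under the floor of 6.93, and 5.56 with the control vector. Thus the measured genes from KLHL9 to CDKN2B were under the floor in CL1-5 on their brightest probe set, except CDKN2A on 209644_x_at and the antisense gene CDKN2A-AS1, which read 7.65 and 6.87 in CL1-5 against 9.54 and 8.95 in CL1-0. The antisense gene CDKN2B-AS1 was under the floor on all 4 arrays. Whether DNA of the stretch differs between the lines was not tested.

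Around CCND2, 20 genes from FKBP4 to NDUFA9 had a probe set, and 19 were above the floor on both CL1-0 arrays. Of these 1 was at or below it on both CL1-5 arrays, CCND2 itself, against 4.42% of the 13589 genes above the floor on both CL1-0 arrays. The stretch was centred on CCND2 with its values known, so that it would be counted was fixed beforehand. The gene next to CCND2, PARP11, a mono-ADP-ribosyltransferase, read 9.72 and 9.46 in CL1-5, against 68.8 and 84.7 in CL1-0, with a between-line log2 ratio of -3.16. On the other side TIGAR, a regulator of glycolysis, read 156 and 163 in CL1-5, against 259 and 344 in CL1-0. Both neighbours were therefore lower in CL1-5 while their signals stayed above the floor. In the vector comparison PARP11 was at -0.30 and TIGAR at -0.41, against -2.24 for CCND2.

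**Figure D3:**
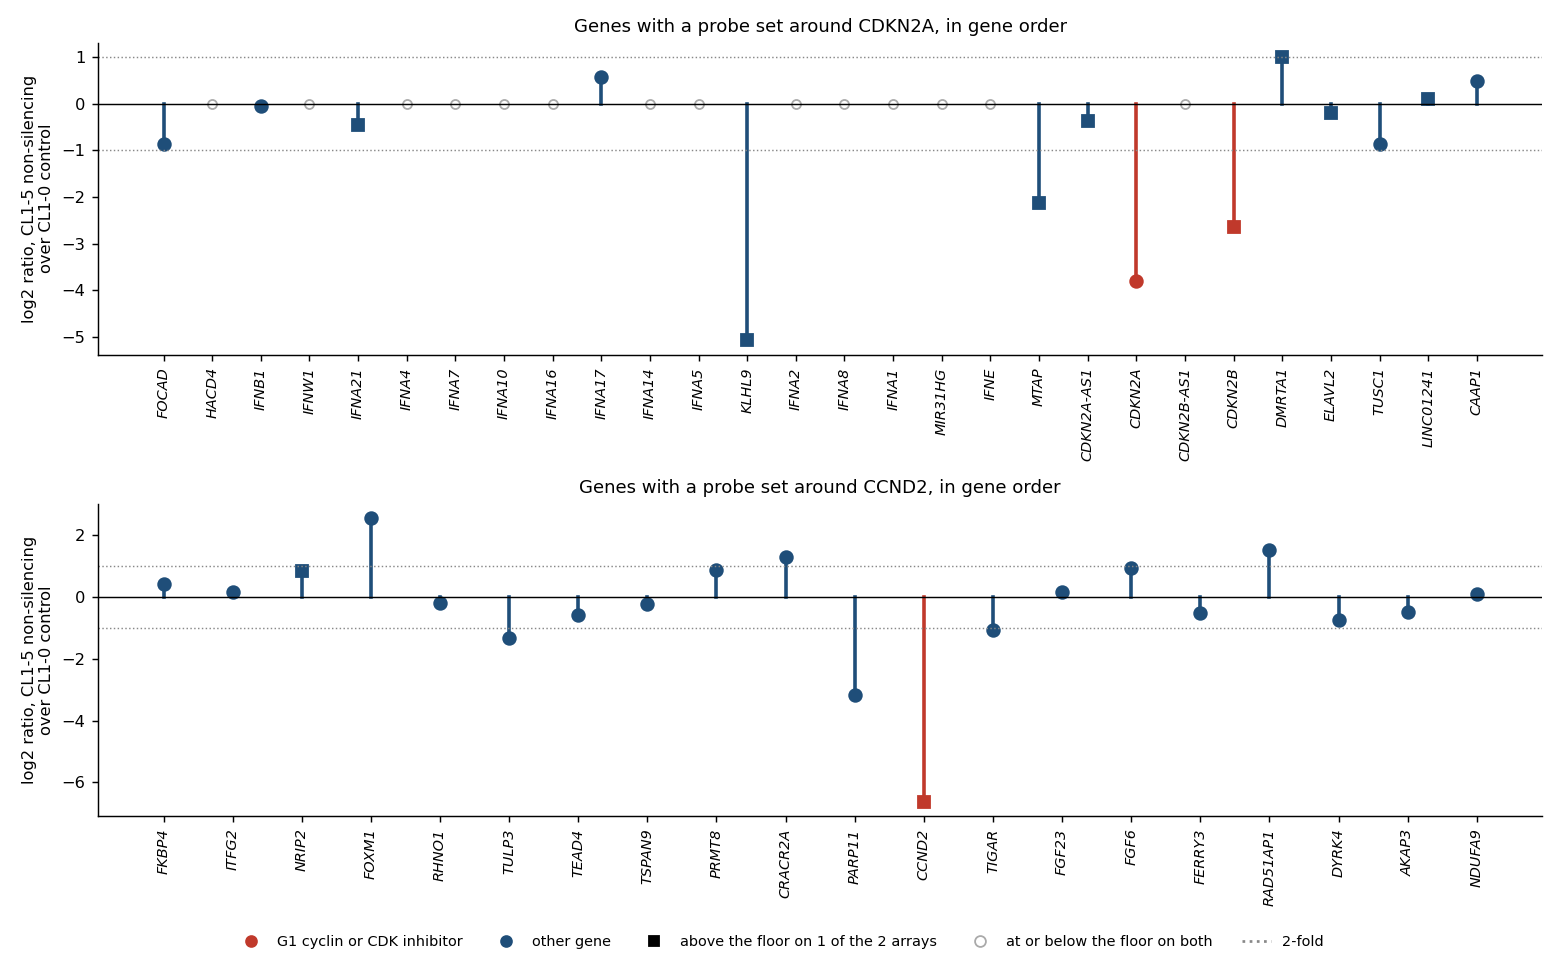
Log2 ratios of CL1-5 non-silencing shRNA over CL1-0 control vector for the genes with a probe set around CDKN2A and around CCND2, in gene order and not to scale in distance. Squares are genes above the floor on 1 of the 2 arrays, whose ratio the floor limits, and open circles genes at or below it on both. KLHL9, MTAP, CDKN2A and CDKN2B are lower in CL1-5 by more than 2-fold, FOCAD and TUSC1 on either side do not reach 2-fold, and PARP11 is the lowest neighbour of CCND2 at -3.16.

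The shares of all measured genes past 2-fold, against which each list's counts at the scaling used are to be read, were 3.22% higher and 1.16% lower for the vector, 0.0914% and 0.0131% for the shRNA, and 17.1% and 14.2% between the lines. Under other settings these shares do not apply. Between the lines 7224 of 16774 measured genes were higher and 771 lower without scaling. They were 1425 and 3902 of 15938 with a common median, 1963 and 2611 of 15898 after quantile normalization, and 2343 and 1364 of 15977 when probe sets were averaged. The partner kinases CDK2, CDK4 and CDK6 and the CDK-activating kinase CDK7 with CCNH and MNAT1 were all above the floor on all 4 arrays. None of these 6 passed 2-fold with the AK4 vector, where CDK6 was at -0.67 and MNAT1 at 0.51, or with AK4 shRNA, where CDK4 was at -0.15 and CDK2 at 0.14. Between the lines 1 was at least 2-fold lower in CL1-5, CDK7 at -1.60, while without scaling 3 were higher and 0 lower. The list's medians were -0.26, -0.04 and -0.01 for the vector, the shRNA and the lines. Of the other CDK inhibitors CDKN2D and CDKN3, 0 passed 2-fold with the AK4 vector (CDKN3 -0.38 and CDKN2D 0.37) or with AK4 shRNA (CDKN2D 0.22 and CDKN3 -0.08). Both were higher in CL1-5 than in CL1-0. CDKN2D, the INK4 protein p19, was at 1.01, and CDKN3, a phosphatase that acts on CDKs, was at 1.38, but 1 passed 2-fold after quantile normalization and 0 with a common median.

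Of the 13 pocket proteins, E2F factors and DP partners, 1 was at least 2-fold higher with the AK4 vector, the repressor E2F8 at 1.10, and 0 were lower, with a list median of -0.15. After quantile normalization 0 reached 2-fold higher. With AK4 shRNA 0 of 13 passed 2-fold, with the largest ratios at E2F5 (0.54) and RBL2, a relative of RB1 (0.48), and a median of 0.12. Between the lines 2 were higher in CL1-5 and 4 lower, with a median of 0.21, but 8 were higher and 1 lower without scaling, and 5 higher and 2 lower when probe sets were averaged, so the list has no settled balance. The repressors E2F7 and E2F8 were at 2.52 and 2.30, and E2F5 and RB1, the retinoblastoma protein, were at -2.19 and -1.48. RB1 read 170 and 125 in CL1-5 with AK4 shRNA and non-silencing shRNA, against 289 and 350.6 in CL1-0 with the AK4 vector and the control vector, so it was measured on all 4 arrays.

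The ubiquitin ligase list covers genes that act on the turnover of cyclins and CIP/KIP inhibitors, among them the deubiquitinase USP28. With the AK4 vector 2 of its 12 genes were at least 2-fold higher and 0 lower. SKP2, which targets p27, was at 1.07 and CUL4A, a scaffold of another ligase, at 1.13, while CDKN1B itself was at 0.79. Averaging probe sets left 0 of the 12 past 2-fold. With AK4 shRNA 0 of 12 passed 2-fold, with CUL4A at 0.44 and AMBRA1, which targets D cyclins, at 0.27. Between the lines 2 were higher in CL1-5, DTL at 1.66 and SKP2 at 1.24, and 2 lower, SKP1 at -1.12 and CUL4A at -1.03. The counts were 5 higher and 0 lower without scaling, 1 higher and 5 lower with a common median, and 0 lower when probe sets were averaged. The list's medians were 0.12, 0.06 and -0.10 for the vector, the shRNA and the lines.

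E2F targets of the G1/S transition were measured for 19 of 20 genes. In the vector comparison 4 were at least 2-fold higher, against 3.22% of all measured genes, and 0 lower, against 1.16%, and the median was 0.34. They were cyclin A2 (CCNA2) at 1.68, the mitotic kinase CDK1 at 1.67 and the replication helicase subunits MCM4 and MCM3 at 1.15 and 1.05. With AK4 shRNA 0 passed 2-fold and the median was -0.02, with TK1 at -0.27 and RRM2, a subunit of ribonucleotide reductase, at -0.23. Between the lines 16 were at least 2-fold higher in CL1-5, against 17.1%, and 0 lower, against 14.2%, and the median was 1.75. CDK1 was at 3.28, MCM3 at 2.70, the origin protein ORC1 at 2.68 and CCNA2 at 2.42. CCNE2 stood with these genes between the lines and CCNE1, at 0.53, did not pass 2-fold.

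Of the p53 targets besides CDKN1A, 9 of 12 had a probe set. Between the lines 1 was at least 2-fold higher in CL1-5, the death receptor FAS at 1.60, and 3 were lower, with the cytokine GDF15 at -4.82, the death receptor TNFRSF10B at -2.61 and MDM2, the ligase of p53, at -1.24. Without scaling 4 were higher and 2 lower, and with a 60th percentile floor 0 were higher. Averaging probe sets gave 0 higher and 1 lower. CDKN1A was at 1.25, and 5 of the 9 measured targets were above 0 at the scaling used, so the list shared no direction. With the AK4 vector 0 of 8 measured passed 2-fold, with GDF15 at -0.81 and RRM2B at 0.62, and with AK4 shRNA 0 of 9, with GDF15 and RRM2B both at 0.43. The list's medians were 0.05, 0.17 and 0.08 for the vector, the shRNA and the lines.

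Polycomb proteins are known to silence the INK4-ARF locus. Of 9 listed genes 6 had a probe set. Between the lines 2 were at least 2-fold higher in CL1-5, the demethylase KDM2B at 1.64 and EED at 1.03, and 0 lower, with a median of 0.44, against 1 higher and 1 lower with a common median. The methyltransferase EZH2 read 222 and 219 in CL1-5, against 232 and 221 in CL1-0 with the AK4 vector and the control vector, a between-line log2 ratio of -0.01. With the AK4 vector 0 of 6 passed 2-fold (RING1 -0.55 and CBX7 0.53, median 0.17), and with AK4 shRNA 0 of 6 (SUZ12 0.24 and CBX7 0.20, median 0.07).

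**Figure D4:**
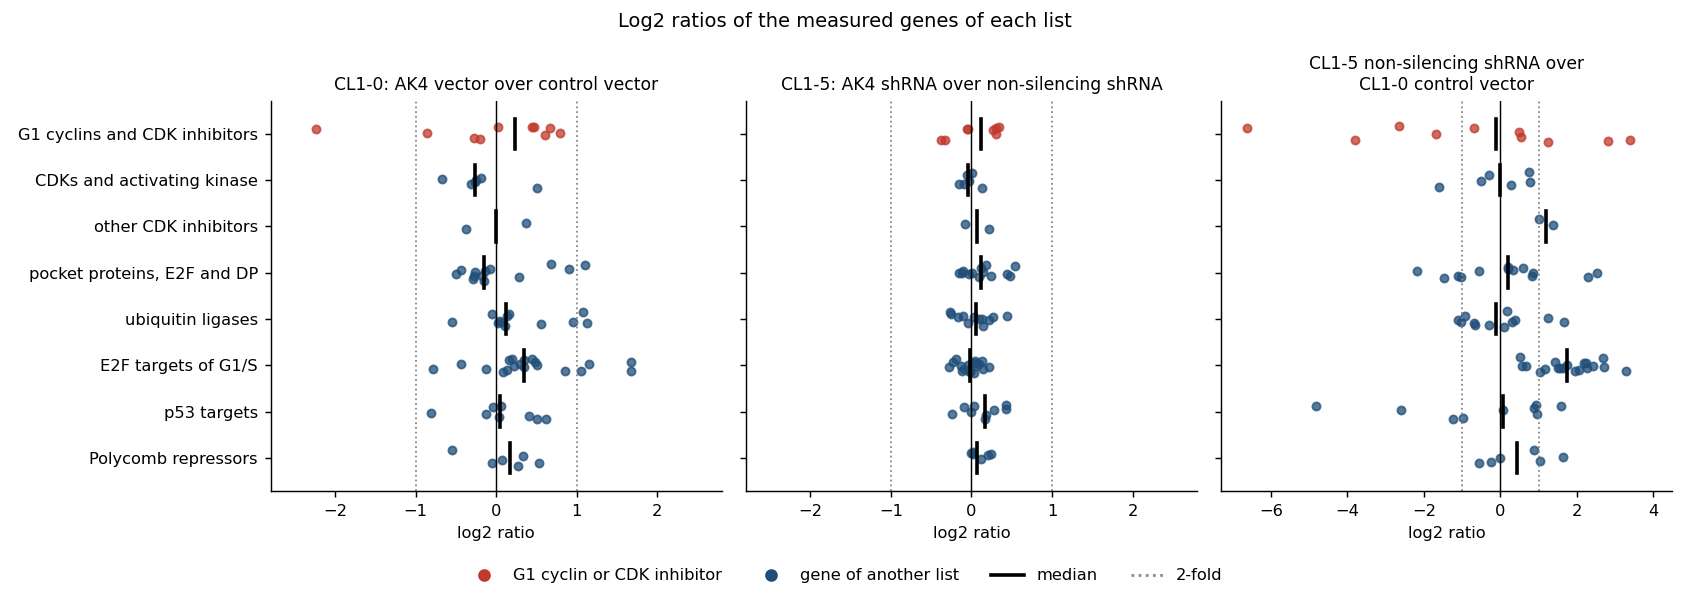
Log2 ratios of the measured genes of each list in the 3 comparisons, with the G1 cyclins and CDK inhibitors in red, other lists in blue and the list's median as a black bar, the panel of the lines on a wider axis. Dotted lines mark 2-fold and points are spread vertically only to be seen. All 19 E2F targets lie above 0 in CL1-5 over CL1-0, while the 10 G1 genes run from -6.63 to 3.38.

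Genes alike in pattern were sought for 5 of the 10 by the Euclidean distance between log2 levels over the 4 arrays, each profile centred on its own mean, among 6738 other genes with a range of at least 1. With 4 arrays, most of such a pattern is the difference between the lines. Nearest to CCND1 were MN1 (distance 0.11), the ubiquitin ligase NEDD4L (0.14) and ZNF93 (0.14). Nearest to CCNE2 were ARHGAP11A (0.15), the glutaredoxin GLRX (0.17) and FBXO32 (0.18), and nearest to CDKN1A were MOB3C, ZMIZ1 and CCDC15, each at 0.26. For CDKN2A they were EMX2OS (0.25), LIMCH1 (0.29) and the kinase DAPK1 (0.36). CCND2 had no gene so close, but distances were not scaled by range and its range was the widest of the 5. Its nearest were the myosin light chain MYL9 (0.56), KITLG, the ligand of the receptor KIT (0.92), and the growth factor VEGFC (1.08). MYL9 read 8.05 and 8.96 in CL1-5, against 170 with the AK4 vector and 532 with the control vector in CL1-0, a ratio of -1.65 for the vector.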

How the data were processed

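RNA of 4 cultures, 1 per group, was hybridised to Affymetrix arrays. The authors deposited 1 linear intensity for each probe set on each array and no detection call. MAS5 was used per the submitters' processing notes, while the sources used here give no version, scaling target or background correction. Values identical on both arrays of a line made up 8.24% of probe sets in CL1-0 and 6.02% in CL1-5, and 0 between the line controls, and no source says how this arose. The deposited columns had trimmed means of 69.4 and 68.5 for CL1-5 with AK4 shRNA and non-silencing shRNA, and 36.8 and 37.5 for CL1-0 with AK4 vector and control vector.

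Arrays were brought to 1 trimmed mean (2% cut from either end, 62 control probe sets left out). The floor was the 40th percentile of all scaled values, and values under it were set to it before log2. Of 54675 probe sets, 41097 had 1 gene symbol, 1801 several and 11777 none. Gene identifiers were matched to current symbols for 99.9% of the probe sets with 1 symbol. A gene was read from its brightest probe set and counted as measured in a comparison if at least 1 of its 2 arrays was above the floor. A ratio of at least 2-fold counted as higher or lower. With 1 array a group there is no test, and precision is limited by the number of arrays. The ratio procedure was tested on simulated data. Gene order came from RefSeq, GRCh38.p14.

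The alternatives were quantile normalization, a common median, no scaling, floors at the 20th and 60th percentile, no floor with log2(signal + 1), the mean of all probe sets, leaving out probe sets ending in _x_at or _s_at where a gene has another, and a 1.5-fold rule. The named genes were all 10, AK4, the members of each list past 2-fold (at most 4, or the 2 largest where none passed) and the 3 nearest in pattern of 5 genes. Neighbouring genes, marker genes and RB1, EZH2 and CDKN2A-AS1 outside this rule were chosen after their values were seen. The members and lists were chosen with earlier results of these data known. Python 3.11.15, pandas 2.3.3 and NumPy 2.4.6 were used.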

Additional observations from a re-analysis of the deposited data

How the results depend on the processing

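Of 56 recomputed counts of the 10 genes past 2-fold, 53 were within 1.5 times the value given. Without scaling 5 genes, not 3, were at least 2-fold higher in CL1-5 than in CL1-0, with CCND3 at 1.36 and CCNE1 at 1.40 added, as the unscaled CL1-5 signals are brighter overall. With the 1.5-fold rule 3 genes were higher and 2 lower with the AK4 vector, where the looser threshold adds them. No ratio past 2-fold changed sign under any alternative. CCND2 ran from -2.30 to -1.61 for the vector. Between the lines CCND1 ran from 2.33 to 3.69, CCNE2 from 2.89 to 4.25, CDKN2A from -4.29 to -2.21, CDKN2B from -3.53 to -1.32 and CCND2 from -7.18 to -3.26, all past 2-fold under the 8 alternatives. Not every alternative could move CCND2. All 4 of its probe sets end in _s_at, so leaving out that ending kept it as it was. The floors at the 20th and 60th percentile left its vector ratio at -2.24. Over all genes, the 473 higher with the AK4 vector were 247 when each gene's probe sets were averaged, and the 14 higher and 2 lower with AK4 shRNA were 5 and 1. Between the lines the 2736 higher and 2272 lower were 7224 and 771 without scaling, 1425 and 3902 with a common median, 1763 higher with a 60th percentile floor and 1364 lower when probe sets were averaged, and the cause was not tested. The 1.5-fold rule gave 1843 and 959, 133 and 83, and 4870 and 3716 for the vector, the shRNA and the lines. Signals near the floor limit CCND2 and CDKN2B in CL1-5. No paired analysis was possible because each group is 1 array and the labels give no replicate numbers.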

Other observations

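No listed neighbour of CCND1 or CCNE1 passed 2-fold between the lines at the scaling used, though without scaling 4 neighbours of CCND1 were higher in CL1-5 and with a common median or quantile normalization 1 was lower. Without scaling 7224 of 16774 measured genes were higher, with a common median 3902 of 15938 were lower, and after quantile normalization 2611 of 15898 were lower. Around CCND1, 13 genes from TPCN2 to CTTN had a probe set, 12 were measured between the lines, and 1 was at least 2-fold higher in CL1-5, CCND1 itself, with 0 lower. Of the 10 listed neighbours the largest between-line ratios were those of CTTN, an actin-binding protein of the cell cortex, at 0.92 and LTO1, the gene next to CCND1, at -0.83. CTTN read 283 and 315 in CL1-5, against 258 and 166 in CL1-0 with the AK4 vector and the control vector, and LTO1 read 21.1 and 19.9 against 46.4 and 35.3. FADD and PPFIA1, which lie in the same stretch, were at 0.29 and 0.11. The list had 0 of 10 past 2-fold with the AK4 vector, where CTTN was at 0.64 and TPCN2 at 0.60, and 0 of 8 with AK4 shRNA, where MYEOV was at 0.25 and ANO1 at 0.18.

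Around CCNE1, 4 of 5 listed neighbours had a probe set and 0 passed 2-fold in any comparison at the scaling used. Without scaling all 4 were at least 2-fold higher in CL1-5, as were 7224 of 16774 measured genes. Between the lines all 4 were above 0, with PLEKHF1 at 0.61 and URI1 at 0.60, beside 0.53 for CCNE1. With the AK4 vector C19orf12 was at 0.38 and POP4 at -0.28, and with AK4 shRNA they were at 0.13 and -0.10. Of the 9 listed neighbours of CCND2, 1 was at least 2-fold higher with the AK4 vector, the recombination factor RAD51AP1 at 1.19, and 0 passed 2-fold with AK4 shRNA. Between the lines 2 of these were higher in CL1-5, RAD51AP1 at 1.52 and CRACR2A at 1.28, and 2 lower, PARP11 and TIGAR, against 1 lower after quantile normalization or without scaling and 1 higher with a common median. Of the 8 listed neighbours of CDKN2A and CDKN2B, 0 of 5 measured passed 2-fold with the AK4 vector, with MTAP at 0.55 and ELAVL2 at -0.20, and 0 of 3 with AK4 shRNA, with FOCAD at -0.18 and MLLT3 at -0.07.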
